A study of Saccharomyces cerevisiae with 21 samples.

Results

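Nascent RNA was compared between STH1-AID cells given DMSO and WT cells, that is, between the uninduced Sth1 degron control and a WT strain with the same kind of Rpb3 tag, before any auxin was added. The comparison takes 6 of the 21 nascent RNA-seq libraries of the study, the 3 biological replicates of each of these groups. STH1-AID DMSO cells carry STH1-3V5-IAA7::KanMX6, the OsTIR1 construct LEU2::pGPD1-osTIR::LEU and RPB3-3xFLAG::NATMX6, and were given the vehicle during exponential growth. WT cells carry RPB3-3xFLAG::NATMX and were left untreated. RAP1-AID/STH1-AID DMSO cells, with both degron alleles, and RAP1-AID DMSO cells, with RAP1-3V5-IAA7::KANMX6, also carry OsTIR1 and were given DMSO, and they were used to read the same genes in other strains. All strains are listed as MATa derivatives of BY4741 with his3D1, leu2D0, met15D0 and ura3D0, and all were grown in YPD at 30 °C. WT lacks the Sth1 tag, OsTIR1 and DMSO, and it also differs in the loci described below, so these differences cannot be told apart in this comparison. The labels name 1 strain per genotype.

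Sth1 is the ATPase of RSC, the essential chromatin remodeler that keeps nucleosomes away from many yeast promoters. The IAA7 part of the tag is an auxin-inducible degron (AID): the plant F-box protein OsTIR1 joins the yeast SCF ubiquitin ligase and, when auxin is present, targets the tagged protein to the proteasome. Degron proteins can lose some function or abundance before auxin is added, which is why the vehicle-treated control is of interest on its own. Nascent RNA-seq reads the RNA that is still bound to RNA polymerase II, here purified through FLAG-tagged Rpb3, so a level reflects transcription more closely than the RNA stored in the cell.

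The 3 STH1-AID DMSO libraries held 20485937 to 21105122 counts and the 3 WT libraries 20582094 to 23182305. Replicates correlated at 0.986 to 0.992 in STH1-AID DMSO and 0.992 to 0.993 in WT (Pearson, log2 level, across genes). STH1-AID DMSO replicate 1 stood apart in 2.07% of its counts on rRNA and tRNA features, against 0.165% to 0.191% in the other replicates of that group and 0.115% to 0.192% in WT. The mating type on the labels was read from a-cell and alpha-cell genes. STE2, the alpha-factor receptor of a cells, was at 173 to 223 CPM (edgeR's counts scaled to a common library size with the TMM factor) in STH1-AID DMSO and at 215 to 353 CPM in WT, and MF(ALPHA)1, a pheromone gene of alpha cells, was at 0.181 CPM or less in these 6 libraries. Not all of these genes were alike in both groups. Of 7 a-cell genes 1 was higher in STH1-AID DMSO and 3 were lower at an adjusted p below 0.05, STE2 among them (log2 fold change -0.54). Of 4 alpha-cell genes SAG1 was higher, by 0.68, and the other 3 did not pass, with a median of 1.75 for the 4. CPM values are not divided by gene length, so they are compared between groups for 1 gene and not between genes.

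The marker loci set the STH1-AID strain apart from the 3 others. MET17 (YLR303W, chromosome XII, 732542 to 733876), which encodes O-acetyl homoserine sulfhydrylase and is the gene named met15 in the labels, had 1 count in each of the 3 STH1-AID DMSO libraries, or 0.0482, 0.0460 and 0.0452 CPM. In WT it was at 55.9, 45.7 and 63.8 CPM. The summed counts were 3 in STH1-AID DMSO and 3339 in WT, a ratio of WT over STH1-AID DMSO of 1177 after scaling (95% exact interval 402 to 5708, counting error only). RAP1-AID/STH1-AID DMSO cells had 43.9, 36.8 and 43.3 CPM and RAP1-AID DMSO cells 39.4, 48.0 and 42.7 CPM, so MET17 was read in 3 of the 4 strains whose labels list met15D0. STH1-AID cells with IAA had 2, 1 and 0 counts. The near absence of MET17 counts was thus seen in both treatments of the STH1-AID strain and in no library of another strain, and whether it bears on any other change below was not tested.

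The other auxotrophic markers did not separate the groups. LEU2 had no counts in any of the 21 libraries, although the OsTIR1 construct of the degron strains is named with a LEU marker. A library floor of 3 counts would be 0.144 CPM in the shallowest scaled STH1-AID DMSO library and 0.157 CPM in that of WT. URA3 had 2 counts in WT replicate 1 and none elsewhere. HIS3 was at 51.3, 48.6 and 43.1 CPM in STH1-AID DMSO and at 48.1, 44.4 and 48.0 CPM in WT, groups that overlap (log2 fold change 0.03 ± 0.11 SE, adjusted p = 0.874, edgeR's quasi-likelihood test with Benjamini-Hochberg adjustment, as for all adjusted p-values here). The counts do not show which part of HIS3 the reads came from.

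**Figure D1:**
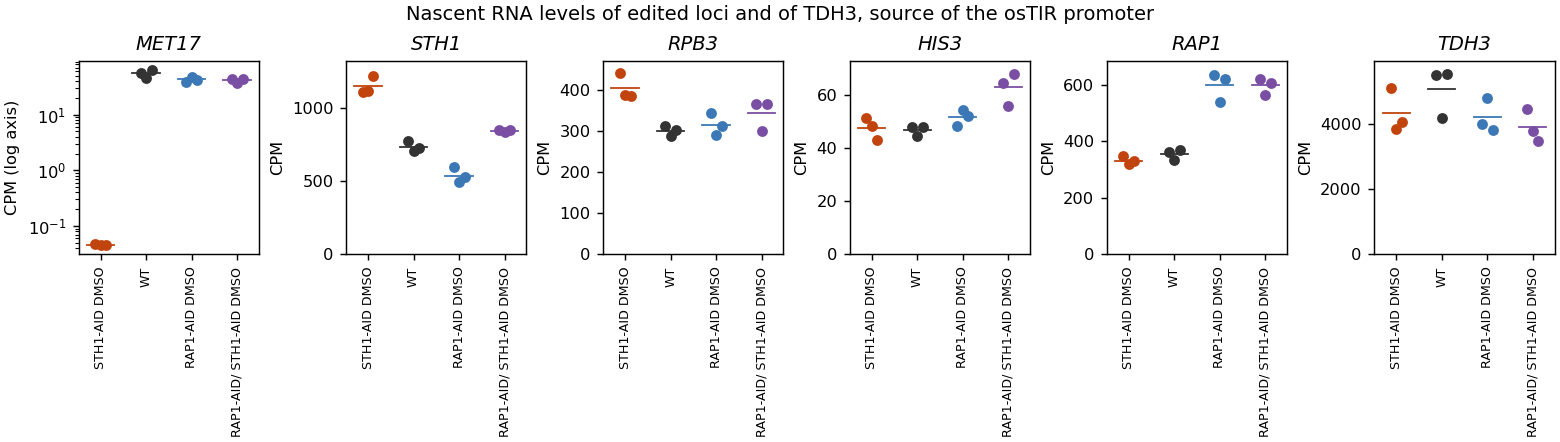
Nascent RNA levels (CPM, y axis; log axis for MET17) of MET17, STH1, RPB3, HIS3, RAP1 and TDH3 in the 4 groups without IAA. Points are the 3 libraries of a group and lines their means. MET17 is near 0.05 CPM in STH1-AID DMSO only, and STH1 is above WT in both groups with the Sth1 tag.

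STH1 itself was transcribed more in the tagged strain. STH1 (YIL126W, chromosome IX, 117992 to 122071) was at 1114, 1119.8 and 1226 CPM in STH1-AID DMSO and at 777, 705 and 730.2 CPM in WT. The groups do not overlap, and the log2 fold change was 0.64 ± 0.09 (SE; adjusted p = 2.88e-05). In an independent pair of strains that differ in the Sth1 tag, STH1 was at 851, 837 and 854 CPM in RAP1-AID/STH1-AID DMSO and at 594, 493 and 528 CPM in RAP1-AID DMSO, a log2 fold change of 0.65 ± 0.09 (SE; adjusted p = 8.2e-05). RPB3 (YIL021W, chromosome IX, 312905 to 313861), the FLAG-tagged polymerase subunit through which all libraries were purified, was at 441, 387 and 386 CPM in STH1-AID DMSO and at 313, 287 and 302 CPM in WT, a log2 fold change of 0.43 ± 0.11 (SE; adjusted p = 0.0033). Both loci lie on chromosome IX, which is described next. RAP1, untagged in both groups, was at 346, 319 and 329 CPM in STH1-AID DMSO and at 363, 333 and 368 CPM in WT and did not pass (adjusted p = 0.491), while it was at 636, 538 and 621 CPM in RAP1-AID DMSO, where it carries the same kind of tag. TDH3, whose promoter is the one usually called pGPD1, did not pass either (-0.23, adjusted p = 0.244).

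The neighbours of these loci were read in the same way. Around RPB3, YKE4 was at 125, 144 and 124 CPM in STH1-AID DMSO and at 60.6, 58.9 and 51.7 CPM in WT, a log2 fold change of 1.20 ± 0.09 (SE; adjusted p = 4.29e-08). HIS6, an enzyme of histidine synthesis, was at 19.2, 18.7 and 16.2 CPM in STH1-AID DMSO and at 9.08, 9.32 and 8.52 CPM in WT, a log2 fold change of 1.01 ± 0.14 (SE). TIM44 and FAF1 rose by 0.51 and 0.59 on the log2 scale, so that all 4 genes nearest to RPB3 were higher in STH1-AID DMSO. Around STH1 the changes were smaller, between -0.01 for MET18 and 0.32 for KGD1, and KGD1 was the only one of the 4 to pass (adjusted p = 0.0166, or 0.0557 without WT replicate 2). Next to MET17, the overlapping dubious frame YLR302C had a log2 fold change of -3.56 that did not pass (adjusted p = 0.0857), and ACO1, the mitochondrial aconitase, was at 1091, 866 and 875 CPM in STH1-AID DMSO and at 2009, 1811 and 2084 CPM in WT. ACO1 fell by 1.06 on the log2 scale (adjusted p = 7.46e-05), and it is counted again with the citrate cycle genes. NFS1 and DCC1, the neighbours of LEU2, had log2 fold changes of 0.01 and 0.02. Beside HIS3, DED1 fell by 0.43 and GEP3 by 0.17 on the log2 scale (adjusted p = 0.00604 and 0.0372), and beside URA3, YEL023C rose by 0.40 (adjusted p = 0.0313).

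The genes of chromosome IX were higher as a group in STH1-AID DMSO cells. The median log2 fold change of the 203 genes tested there was 0.31, or 1.24-fold, while the medians of the other chromosomes lay between -0.06 on chromosome VII and 0.08 on chromosome VIII. On chromosome IX 98 genes rose and 8 fell, 48.3% and 3.94% of those tested, against 18.5% of all genes that rose and 19.4% that fell. Within single libraries, the level of chromosome IX relative to the other chromosomes and to the WT mean was 0.388, 0.297 and 0.251 (log2) in STH1-AID DMSO and 0.0529, 0.00379 and -0.0453 in WT. The groups do not overlap, and the exact two-sided permutation test gave p = 0.1, the smallest value that the 20 arrangements of 3 against 3 libraries allow. Chromosome IX was singled out for its values in these same libraries, and groups that do not overlap can only give 0.1. The test therefore adds no support, and the values are a description.

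The same offset was seen in STH1-AID cells with IAA, at 0.281, 0.268 and 0.236. It was -0.0104, -0.00456 and -0.0337 in RAP1-AID/STH1-AID DMSO, which carries the same tag on STH1, and -0.0398, -0.0188 and -0.0269 in RAP1-AID DMSO. In STH1-AID DMSO the offset was uneven along the chromosome. In 6 successive parts of equal length, from the left end to the right, the median log2 fold change was 0.51, 0.37, 0.30, 0.15, 0.25 and 0.46. In part 4 the STH1-AID DMSO libraries were at 0.161, 0.105 and 0.0756 (median log2 level less the WT mean). WT replicate 1 was at 0.0776, so the groups overlapped in that part. In STH1-AID cells with IAA the part just left of the middle was at -0.17, -0.22 and -0.06 (median log2 level less the WT mean, by library) and the part just right of it at 0.06, -0.13 and -0.14, so these parts did not show the offset there. A mean offset of 0.31 is 1.24-fold, and DNA copy number was not measured in these libraries, so the part of copy number in this offset was not tested. The counts over all genes were also taken without the genes of chromosome IX, an alternative added after seeing the data.

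**Figure D2:**
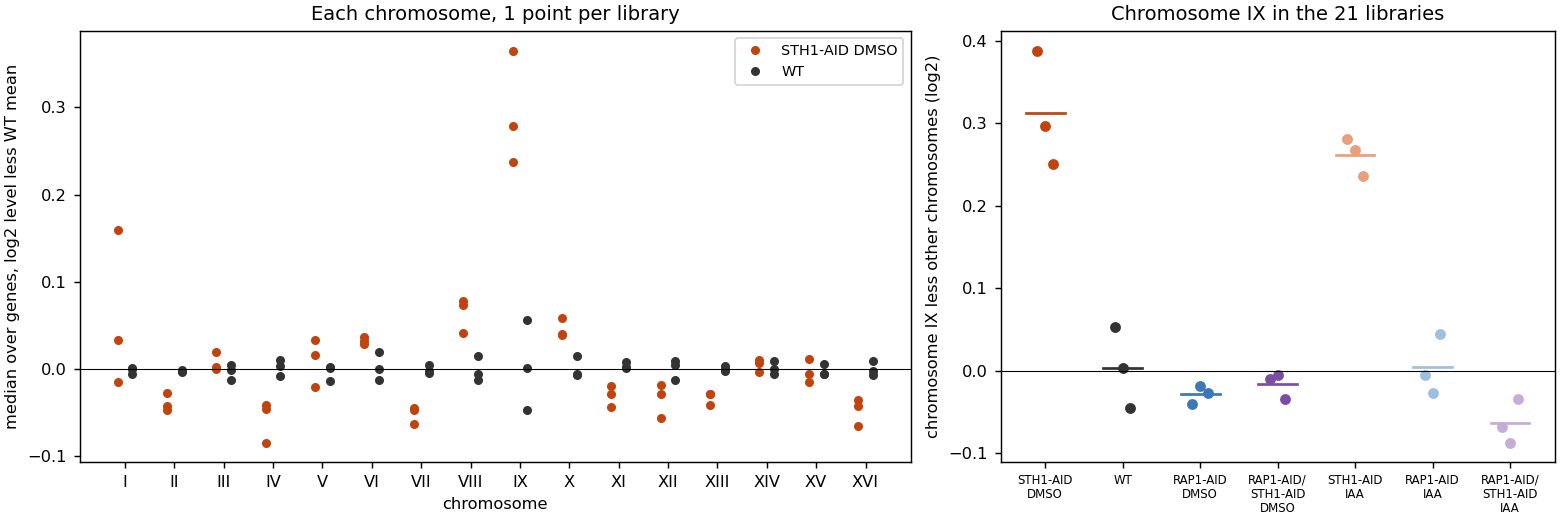
Left, the median over the genes of each chromosome of the log2 level less the WT mean, 1 point per library of STH1-AID DMSO and WT (y axis, log2). Right, chromosome IX less the other chromosomes in all 21 libraries, with the mean of each group as a line: both STH1-AID groups lie between 0.236 and 0.388, and every other library lies between -0.0873 and 0.0529.

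Over all genes, 2175 of 5742 protein-coding genes tested differed between STH1-AID DMSO and WT at an adjusted p below 0.05, which is 37.9%. Of these 1060 rose (18.5%) and 1115 fell (19.4%). Most changes were small: 1373 of the 2175, or 63.1%, were within 1.5-fold. Changes of more than 2-fold numbered 205 higher (3.57%) and 114 lower (1.99%). The 3 STH1-AID DMSO libraries and the 3 WT libraries did not overlap for 2915 genes, which is 50.8% of those tested. Without the genes of chromosome IX, 1011 genes rose and 1032 fell. TMM scaling sets the median gene near 0, and the split depends on it: when libraries were scaled by their totals alone, the median of all genes moved by 0.12 on the log2 scale, and 1531 genes rose and 629 fell, or 261 and 87 at more than 2-fold. In a bulk culture, fewer transcribing cells and less RNA per cell cannot be told apart.

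**Figure D3:**
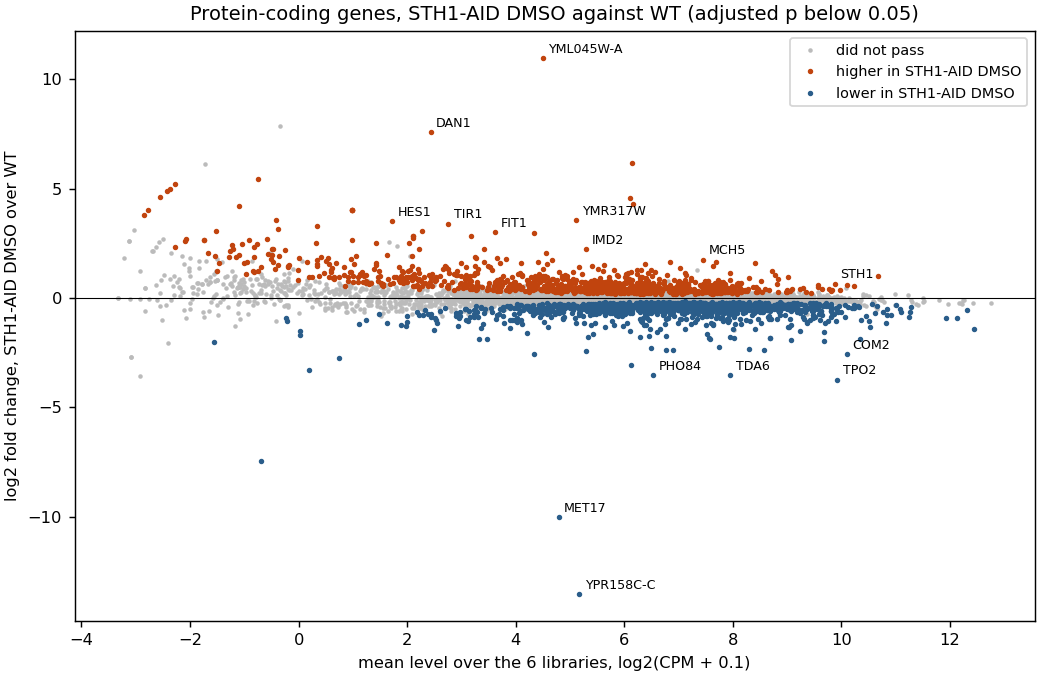
Log2 fold change of STH1-AID DMSO over WT (y axis) against the mean level of the 6 libraries (x axis, log2 of CPM plus 0.1), 1 point per protein-coding gene tested. Coloured points passed at an adjusted p below 0.05, 1060 higher and 1115 lower, and MET17, DAN1, TPO2 and PHO84 are among those farthest from 0.

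The 15 largest increases and the 15 largest decreases were taken from the genes past both thresholds with at least 50 counts on average and no overlap between groups, 117 that rose and 105 that fell. Among the increases were cell wall mannoprotein genes of the anaerobic or cold-induced DAN/TIR family. DAN1 was at 17.9, 8.28 and 5.51 CPM in STH1-AID DMSO and at 0.0522, 0.0440 and 0.0519 CPM, 1 count a library, in WT. The ratio of the summed counts of STH1-AID DMSO over WT was 212 (95% exact interval 72.3 to 1032, counting error only), and STH1-AID DMSO replicate 1 was the highest. TIR1 was at 17.3, 11.2 and 7.91 CPM in STH1-AID DMSO and at 1.57, 0.748 and 1.19 CPM in WT, a log2 fold change of 3.39 ± 0.39 (SE; adjusted p = 2.49e-06). TIR4, another mannoprotein gene, rose by 2.98. HES1, an oxysterol-binding protein homologue, rose by 3.50, FIT1, a cell wall mannoprotein that retains iron siderophores, by 3.01, and RSB1, a putative transporter of sphingoid long-chain bases, by 2.85. YMR317W, ANB1 (the hypoxic isoform of eIF5A) and CIS1 were also among the 15, with 3.56, 2.73 and 2.50. In each of these the groups did not overlap, which the selection required.

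The remaining increases are genes with close copies. IMA3 and IMA4 are nearly identical isomaltase genes, and YML045W-A, YHR214C-C, YOR142W-A and YPR158W-A are Ty retrotransposon genes, for which RSEM divides reads among copies. YPR158C-C, the largest decrease, is also a Ty gene: it had 0 counts in the 3 STH1-AID DMSO libraries and 134, 39.1 and 42.3 CPM in WT, at least 515-fold lower in STH1-AID DMSO at a floor of 3 counts in a library. STH1-AID cells with IAA had 1054 to 2277 counts of YPR158C-C. The change of a single Ty copy is thus uncertain.

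The largest decreases after MET17 and the Ty genes were led by TPO2, a polyamine transporter of the plasma membrane. TPO2 (chromosome VII, 763762 to 765606) was at 90.8, 195 and 119 CPM in STH1-AID DMSO and at 1851, 1760.2 and 1799 CPM in WT, a log2 fold change of -3.74 ± 0.49 (SE; adjusted p = 1.05e-05). TDA6 was at 32.7, 49.9 and 34.8 CPM in STH1-AID DMSO and at 495, 413 and 461 CPM in WT. COM2, a zinc-finger transcription factor gene, was at 295, 355 and 291 CPM in STH1-AID DMSO and at 2042, 1791 and 1815 CPM in WT, a log2 fold change of -2.59 ± 0.37 (SE; adjusted p = 2.33e-05). These 3 genes were strongly transcribed in every WT library. Their groups did not overlap, which the selection required. PHO84 and PHM8 are described with the phosphate genes. FMP48, RIE1, TOS3 (a kinase that activates Snf1), YDR222W, GAT2 (a GATA-type zinc-finger gene), YLR297W and AST1 fell by between 2.23 and 2.55 on the log2 scale.

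**Figure D4:**
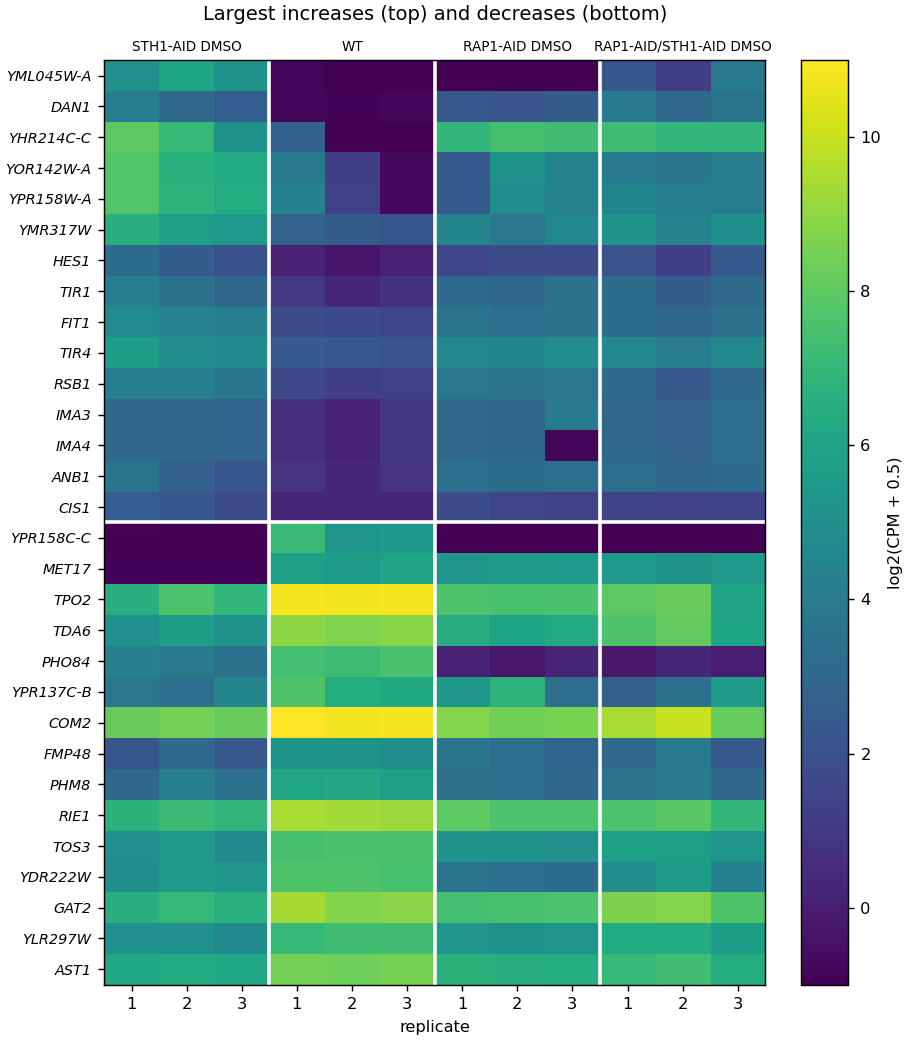
Levels (colour, log2 of CPM plus 0.5) of the 15 largest increases (top) and 15 largest decreases (bottom) of STH1-AID DMSO over WT, in the 3 libraries of each of the 4 groups without IAA (x axis). For TPO2, COM2, TIR1 and TIR4 the RAP1-AID DMSO libraries are nearer to STH1-AID DMSO than to WT, while MET17 is low in STH1-AID DMSO only.

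Gene groups were read by the count of their tested members that passed, beside the 18.5% of all genes that rose and the 19.4% that fell, and by their median, which was -0.01 over all genes. The groups carry no test of their own.

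Genes of branched-chain amino acid synthesis and uptake were lower in STH1-AID DMSO. Some of them are controlled by Leu3, which binds the intermediate made on the way to leucine and acts as activator when it is plentiful. Of 14 tested genes of leucine, isoleucine and valine, 8 fell and 3 rose, with a median of -0.31. LEU1, isopropylmalate isomerase (chromosome VII, 476313 to 478652), was at 246, 199.7 and 224 CPM in STH1-AID DMSO and at 969.6, 741 and 834 CPM in WT. Its log2 fold change was -1.93 ± 0.11 (SE; adjusted p = 5.85e-10), and the highest STH1-AID DMSO library lay far below the lowest WT library. OAC1, the mitochondrial carrier that also exports isopropylmalate, was at 114, 112 and 107 CPM in STH1-AID DMSO and at 421, 364 and 355 CPM in WT, a log2 fold change of -1.78 ± 0.09 (SE). The permease gene BAP3 fell by 1.10, the mitochondrial transaminase gene BAT1 by 1.01, ILV3 by 0.86, BAP2 by 0.70, ILV5 by 0.39 and ILV2 by 0.24 on the log2 scale. BAT2, the cytosolic transaminase, rose by 0.72, at 336, 248 and 263 CPM in STH1-AID DMSO and 160.4, 173 and 180.0 CPM in WT.

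A Leu3 motif (CCGG, any 2 bases, CCGG) was searched on both strands in the 500 bases before each start codon in the RefSeq R64 genome. It occurred in 15 of 5727 promoters (0.262%), and of these 15 genes 9 fell and none rose, with a median log2 fold change of -0.37. The others did not pass. The motif was in 5 of the 14 branched-chain promoters and in 2 of the 114 genes that fell more than 2-fold, so most genes that fell lack it. The windows of 4 of the 9 that fell are shown as examples, 5′ to 3′ on the gene's strand, with the motif in capitals.
LEU1: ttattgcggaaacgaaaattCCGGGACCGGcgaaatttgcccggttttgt
BAT1: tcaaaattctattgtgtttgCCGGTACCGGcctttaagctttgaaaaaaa
BAP2: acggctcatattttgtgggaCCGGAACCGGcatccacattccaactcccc
GDH1: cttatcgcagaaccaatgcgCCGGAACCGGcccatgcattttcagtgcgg
The motif of LEU1 lies 207 bases before the start codon (window chrVII:478840-478889, minus strand), that of BAT1 137 bases (chrVIII:517365-517414, plus strand), that of BAP2 376 bases (chrII:376047-376096, minus strand) and that of GDH1 394 bases (chrXV:1043417-1043466, minus strand). GDH1, a glutamate dehydrogenase outside the branched-chain list, was at 171, 159 and 173 CPM in STH1-AID DMSO and at 248, 217 and 293 CPM in WT, a log2 fold change of -0.59 ± 0.11 (SE; adjusted p = 0.00035). OAC1, BAP3 and ILV3 fell without these letters in the window.

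LEU1 was low in the other DMSO groups as well, at 277, 246 and 244 CPM in RAP1-AID/STH1-AID DMSO and at 279, 251 and 259 CPM in RAP1-AID DMSO, and STH1-AID DMSO over RAP1-AID DMSO gave a log2 fold change of -0.24 ± 0.11 (SE; adjusted p = 0.102). ILV3 and BAT1 were likewise at 798, 769 and 756 CPM and 165, 185 and 166 CPM in RAP1-AID DMSO, against 1498, 1250.2 and 1395 CPM and 371, 296 and 314 CPM in WT. These 3 DMSO groups share OsTIR1, the LEU marker and the vehicle, which WT lacks, and which of these goes with the lower levels cannot be told apart.

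Phosphate genes changed in both directions. The phosphate-starvation genes are activated by Pho4, which binds CACGTG when phosphate is scarce. Of 22 tested members 13 fell and 5 rose, with a median of -0.44. PHO84, the high-affinity phosphate transporter, was at 18.1, 15.5 and 10.5 CPM in STH1-AID DMSO and at 169, 154 and 189 CPM in WT, a log2 fold change of -3.54 ± 0.19 (SE; adjusted p = 1.24e-10). SPL2, a small regulator of phosphate uptake, was at 0.193, 0.322 and 0.0452 CPM in STH1-AID DMSO and at 1.77, 2.55 and 1.35 CPM in WT, a log2 fold change of -3.31 ± 0.44 (SE). PHM8, a nucleotide phosphatase, fell by 2.45 and GPP2, a glycerol-phosphate phosphatase, by 1.15, while VTC3, a subunit of the polyphosphate polymerase of the vacuole, fell by 1.08 on the log2 scale. The paralogous secreted acid phosphatases PHO11 and PHO12 rose instead, by 1.42 and 1.13. They are near-identical, so that reads may be divided between them.

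CACGTG was found in 16 of the 22 phosphate promoters (72.7%), against 360 of 5727 promoters (6.29%). It was present both upstream of genes that fell and upstream of genes that rose, as the windows of PHO84, VTC3 and PHO12 show, again with the motif in capitals.
PHO84: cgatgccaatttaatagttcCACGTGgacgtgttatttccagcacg
PHO84, second motif: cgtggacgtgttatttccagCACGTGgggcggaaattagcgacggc
VTC3: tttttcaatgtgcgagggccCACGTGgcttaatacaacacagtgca
PHO12: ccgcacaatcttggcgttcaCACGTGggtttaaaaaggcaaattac
The motifs of PHO84 lie 430 and 408 bases before its start codon (windows chrXIII:26211-26256 and chrXIII:26189-26234, minus strand), that of VTC3 339 bases (chrXVI:517338-517383, minus strand) and that of PHO12 277 bases (chrVIII:551796-551841, plus strand). The window of PHO11 is identical in sequence to that of PHO12. PHO84 also separated the degron strains from one another: it was at 0.375, 0.802 and 0.494 CPM in RAP1-AID/STH1-AID DMSO and at 0.629, 0.370 and 0.698 CPM in RAP1-AID DMSO, below STH1-AID DMSO, whose log2 fold change over RAP1-AID DMSO was 4.67 ± 0.27 (SE; adjusted p = 1.92e-10).

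Genes of the weak acid response fell together. This list was put together after the largest decreases had been seen, and its count is a description of them. It holds the transcription factor gene HAA1, whose product activates transporter genes when acetate accumulates, known targets of it, and other genes of weak acid export. Of 12 genes 10 fell and none rose, with a median of -1.45, and 7 fell more than 2-fold. Beside TPO2, TPO3 was at 335, 367 and 294 CPM in STH1-AID DMSO and at 1431, 1114 and 1358 CPM in WT, a log2 fold change of -1.97 ± 0.30 (SE; adjusted p = 5.35e-05). YRO2, a plasma membrane protein, was at 22.3, 51.6 and 31.0 CPM in STH1-AID DMSO and at 128, 128 and 109 CPM in WT. YGP1, a secreted glycoprotein, fell by 1.43, HRK1, a kinase that acts on the proton pump, by 1.13, and HAA1 itself by 0.43 on the log2 scale. SPI1 fell by 1.62 (adjusted p = 0.0276), a call lost when any of 4 of the 6 libraries was left out. STH1-AID DMSO replicate 2 was the highest of its group for TPO2 and YRO2 and still lay below WT. TPO2 was at 249.9, 299.6 and 64.6 CPM in RAP1-AID/STH1-AID DMSO and at 199.6, 181 and 185 CPM in RAP1-AID DMSO, and the difference of STH1-AID DMSO from RAP1-AID DMSO did not pass (-0.48 ± 0.44 SE, adjusted p = 0.42).

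Genes of hypoxic growth were mostly higher in STH1-AID DMSO. This list too was made after the largest increases had been seen. Of 18 genes 10 rose and 3 fell, with a median of 0.98, and 9 rose more than 2-fold. Beside DAN1, TIR1, TIR4, HES1 and ANB1, TIR3 was at 27.0, 17.9 and 13.6 CPM in STH1-AID DMSO and at 5.48, 5.41 and 5.40 CPM in WT, a log2 fold change of 1.84 ± 0.27 (SE; adjusted p = 3.16e-05). TIR2 rose by 1.57, the sterol transporter AUS1 by 1.49 and AAC3, an ADP/ATP carrier used without oxygen, by 1.04. The 3 that fell were OLE1, the fatty acid desaturase, at 1448, 977 and 939 CPM in STH1-AID DMSO and 2538, 2454 and 2474 CPM in WT, ROX1, the heme-dependent repressor of hypoxic genes, at 492, 513 and 487 CPM in STH1-AID DMSO and 1059, 910.3 and 819 CPM in WT, and PDR11, whose call (adjusted p = 0.0186) was lost without any of 3 libraries. ROX1 fell by 0.90 on the log2 scale (adjusted p = 0.000188). In the other DMSO groups TIR1 was at 8.94, 5.31 and 8.48 CPM in RAP1-AID/STH1-AID and 8.68, 7.91 and 11.0 CPM in RAP1-AID, and ANB1 at 9.27, 7.67 and 8.62 CPM and 9.90, 8.83 and 9.52 CPM.

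Respiratory and citrate cycle genes were lower. Of 36 tested subunits of the respiratory chain 18 fell and none rose, with a median of -0.41. RAP1-AID DMSO was lower as well: the list median (log2 level less the WT mean) was -0.71, -0.64 and -0.69 in its libraries. It was -0.64, -0.25 and -0.39 in STH1-AID DMSO. QCR8, a subunit of the cytochrome bc1 complex, was at 11.7, 16.4 and 13.3 CPM in STH1-AID DMSO and at 27.2, 36.1 and 40.4 CPM in WT, a log2 fold change of -1.32 ± 0.28 (SE; adjusted p = 0.000899). COX4, a cytochrome oxidase subunit, was at 8.52, 7.68 and 8.67 CPM in STH1-AID DMSO and at 16.6, 12.1 and 20.0 CPM in WT, and ATP2, the beta subunit of the ATP synthase, fell by 0.75. Of 22 citrate cycle genes 11 fell and 3 rose, with a median of -0.30. By library their median was -0.40, -0.22 and -0.23 in STH1-AID DMSO and -0.19, -0.13 and -0.22 in RAP1-AID DMSO. CIT2, the peroxisomal citrate synthase, was at 455, 442 and 353 CPM in STH1-AID DMSO and at 1149, 1221 and 1296 CPM in WT, a log2 fold change of -1.55 ± 0.12 (SE; adjusted p = 4.69e-08). IDH2 and IDH1, the isocitrate dehydrogenase subunits, fell by 1.01 and 0.89, and CIT1, the mitochondrial synthase, by 0.95. CIT3, another citrate synthase gene, was among those that rose, by 1.24.

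Of 26 ergosterol synthesis genes 12 fell and 1 rose, with a median of -0.19, and under total library size 8 fell and 3 rose, with a median of -0.07. By library the list median (log2 level less the WT mean) was -0.22, -0.24 and -0.22 in STH1-AID DMSO. In RAP1-AID DMSO it was -0.18, -0.19 and -0.32. The mevalonate decarboxylase gene MVD1 fell by 0.78, ERG5 by 0.71 and HMG1, an HMG-CoA reductase, by 0.51 on the log2 scale. ERG11, the lanosterol demethylase, was at 464, 422 and 451 CPM in STH1-AID DMSO and at 594, 546 and 684 CPM in WT. The single increase was ERG12, of 0.23.

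Thiamine and vitamin B6 genes rose, as did several genes of drug export. Of 25 tested thiamine and vitamin B6 genes 15 rose and 1 fell, with a median of 0.52, and 10 rose more than 2-fold. The increase was larger in RAP1-AID DMSO: the list median (log2 level less the WT mean) was 1.04, 1.10 and 1.11 in its libraries. It was 0.58, 0.60 and 0.48 in STH1-AID DMSO. In STH1-AID DMSO over RAP1-AID DMSO 1 of these genes was higher and 15 were lower. THI2, the activator of the thiamine genes, was at 10.6, 23.5 and 18.5 CPM in STH1-AID DMSO and at 4.44, 3.39 and 3.32 CPM in WT, a log2 fold change of 2.24 ± 0.22 (SE; adjusted p = 4.88e-07). THI4, which makes the thiazole part, was at 1.20, 2.16 and 2.48 CPM in STH1-AID DMSO and at 0.470, 0.396 and 0.156 CPM in WT. The subtelomeric SNZ2, SNZ3, THI5 and THI13 belong to gene families of near-identical copies, and their single increases are uncertain. Of 19 multidrug genes, many of them targets of Pdr1 and Pdr3, 9 rose and 5 fell. PDR5, the main drug efflux pump, was at 2803, 1816 and 1879 CPM in STH1-AID DMSO and at 1272, 826 and 1193 CPM in WT, a log2 fold change of 0.98 ± 0.26 (SE; adjusted p = 0.00553). PDR15, its paralogue, was at 208, 188 and 165 CPM in STH1-AID DMSO and at 77.4, 62.7 and 77.6 CPM in WT. Both groups of values were separate, and PDR10, another paralogue, fell by 0.54. In RAP1-AID DMSO cells PDR15 was at 247, 198 and 202 CPM.

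Genes of iron uptake and of hexose transport changed in both directions. Of 28 iron genes 9 rose and 3 fell, with a median of 0.05. FIT1 was at 27.5, 19.7 and 18.0 CPM in STH1-AID DMSO and at 2.87, 2.77 and 2.44 CPM in WT. FIT3 was at 148, 96.5 and 64.2 CPM in STH1-AID DMSO and at 34.7, 55.4 and 52.5 CPM in WT, ARN1, a siderophore transporter, rose by 0.84, and ISU1, a scaffold of iron-sulfur clusters, fell by 0.64. Among 26 hexose transport and glucose sensing genes 10 rose and 5 fell. HXT4 and HXT1, transporters induced by glucose, fell by 1.07 and 0.99, and the glucose-induced repressor gene MIG2 fell by 0.95, while HXT17, which has close paralogs in the family, rose by 1.298.

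Several other amino acid pathways were higher rather than lower. Of 15 arginine genes 8 rose and 2 fell. ARG1, argininosuccinate synthase, was at 184, 181 and 204 CPM in STH1-AID DMSO and at 83.0, 85.5 and 108 CPM in WT, a log2 fold change of 1.04 ± 0.22 (SE; adjusted p = 0.000845). Of 7 histidine genes 4 rose and none fell. HIS4 was at 711, 627 and 727 CPM in STH1-AID DMSO and at 360.3, 319 and 379.5 CPM in WT, a log2 fold change of 0.96 ± 0.11 (SE). HIS6, another of the 4, lies on chromosome IX. Of 15 aromatic amino acid genes 8 rose and 1 fell, ARO4 by 0.76 among the increases, and of 8 lysine genes 4 rose and 1 fell. Some histidine and lysine genes lie on chromosome IX. Without them the median was 0.20 for 5 histidine genes, in place of 0.25, and 0.20 for 6 lysine genes, in place of 0.24. Sulfate and methionine genes, which share the pathway of MET17, did not stand out: 7 of 40 rose and 5 fell, with a median of 0.01. The amino acid changes differed in direction between pathways, and of the pathways given here the branched-chain genes had a negative median. A separate list of amino acid and nitrogen uptake genes had a negative median too, -0.26, with 7 of 23 lower and 4 higher.

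**Figure D5:**
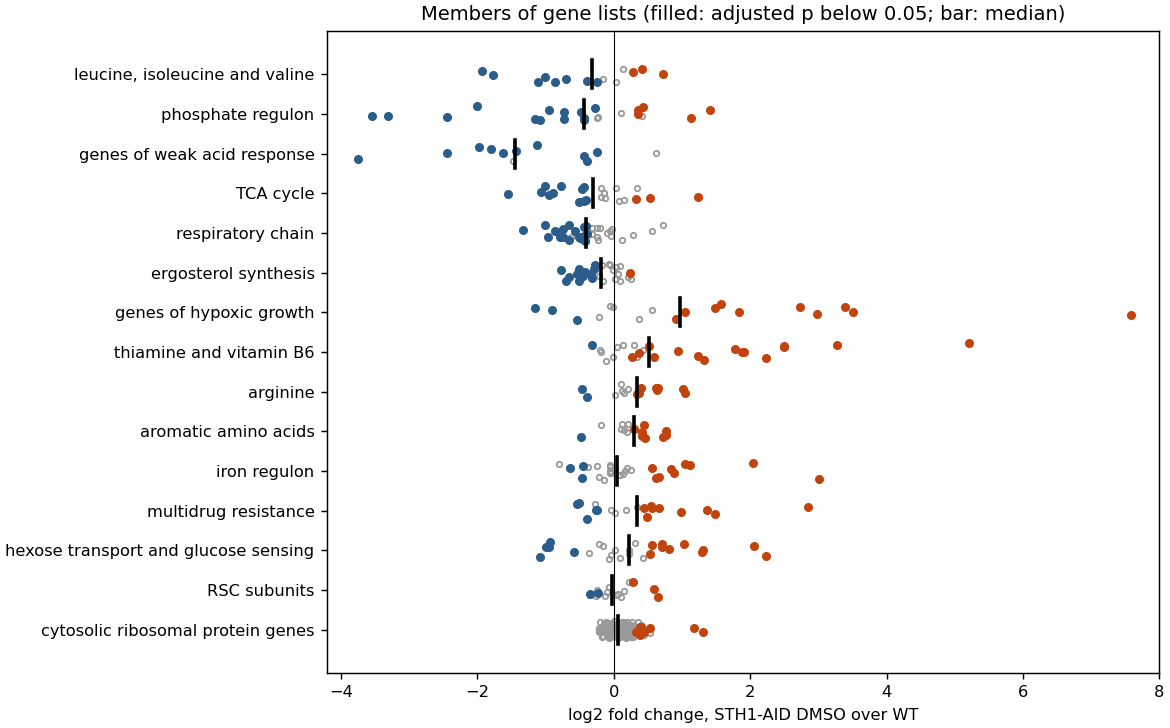
Log2 fold change of STH1-AID DMSO over WT (x axis) of each tested member of 15 gene lists (rows). Filled points passed at an adjusted p below 0.05, open points did not, and vertical bars mark the medians, for example -1.45 for weak acid genes, 0.98 for genes of hypoxic growth and -0.02 for RSC subunits.

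RSC subunits passed in both directions. Of 17 tested subunits 3 rose and 2 fell, 29.4% against 37.9% of all genes, with a median of -0.02. LDB7, a fungal RSC subunit, was at 117, 108 and 87.1 CPM in STH1-AID DMSO and at 64.1, 77.1 and 66.5 CPM in WT, a log2 fold change of 0.59 ± 0.11 (SE; adjusted p = 0.000296), and RSC9 rose by 0.29. RSC30 and NPL6 fell by 0.34 and 0.23, calls that were lost under total library size (adjusted p of 0.139 and 0.247). For the catalytic core partners RSC8 and SFH1 the log2 fold changes were 0.03 ± 0.08 and 0.07 ± 0.06 (SE), and the groups overlap. The alternative bromodomain subunits RSC1 and RSC2 had log2 fold changes of -0.13 and -0.24 and did not pass. Under total library size 5 subunits rose and none fell and the median of the list was 0.10, so no direction is given for it.

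Factors that shape promoters and termination changed individually. Of 6 general regulatory factors, CBF1, a factor that binds CACGTG and acts on methionine genes and centromeres, was at 97.6, 101 and 100.02 CPM in STH1-AID DMSO and at 54.3, 63.9 and 54.2 CPM in WT, a log2 fold change of 0.79 ± 0.10 (SE; adjusted p = 6.3e-06). ABF1 rose by 0.41, and MCM1, a MADS-box factor of mating and cell cycle genes, was at 209.5, 214 and 177 CPM in STH1-AID DMSO and at 408, 391 and 421 CPM in WT, a log2 fold change of -1.02 ± 0.13 (SE; adjusted p = 7.27e-06). Among 25 genes of the nuclear exosome and termination 5 rose and 1 fell. NRD1, which terminates short noncoding transcripts, was at 119, 129 and 133 CPM in STH1-AID DMSO and at 54.4, 54.1 and 48.9 CPM in WT, a log2 fold change of 1.28 ± 0.11 (SE; adjusted p = 9.78e-08). PCF11, a cleavage factor subunit, rose by 0.75. IMD2, an IMP dehydrogenase whose transcription is set by Nrd1-dependent termination, was at 88.1, 52.8 and 52.0 CPM in STH1-AID DMSO and at 15.3, 11.5 and 14.6 CPM in WT, a log2 fold change of 2.22 ± 0.21 (SE; adjusted p = 4.02e-07).

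Some histone genes fell, and genes of remodelers and chaperones changed in both directions. Of 11 tested histone genes 4 fell and 1 rose, with a median of -0.35. By library the list median (log2 level less the WT mean) was -0.23, -0.34 and -0.39 in STH1-AID DMSO. In RAP1-AID DMSO it was -0.47, -0.21 and -0.40. HTB1, a core H2B gene, was at 187, 174 and 160.4 CPM in STH1-AID DMSO and at 281, 272 and 295 CPM in WT, a log2 fold change of -0.70 ± 0.15 (SE; adjusted p = 0.00122). Core histone genes exist as similar pairs, so that reads may be divided between copies. HHF2, an H4 gene, fell by 0.84, and HHO1, the linker histone, rose by 0.46. HIR2, a subunit of the repressor of histone genes, was at 76.9, 75.4 and 86.5 CPM in STH1-AID DMSO and at 50.6, 50.0 and 48.3 CPM in WT, and ASF1, a histone chaperone, rose by 0.70. Of 21 other remodelers and chaperones 5 rose and 6 fell, INO80 by 0.52 among the decreases. SIR4, a silencing protein gene, fell by 0.39 on the log2 scale.

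Single regulators of carbon and stress genes also moved. GAL4, the activator of the galactose genes, was at 35.9, 39.4 and 41.2 CPM in STH1-AID DMSO and at 12.9, 10.3 and 11.8 CPM in WT, a log2 fold change of 1.74 ± 0.13 (SE; adjusted p = 2.41e-08), and GAL1, the galactokinase, rose by 1.41. Of 8 galactose genes 3 rose and none fell. Their median (log2 level less the WT mean) was 0.60, 0.69 and 0.38 in the STH1-AID DMSO libraries and 1.13, 1.11 and 1.09 in those of RAP1-AID DMSO. MSN4, an activator of the general stress response, was at 136, 189.6 and 197 CPM in STH1-AID DMSO and at 428, 329 and 432 CPM in WT, a log2 fold change of -1.19 ± 0.20 (SE). Of 45 general stress genes 8 rose and 9 fell, so 37.8% passed, against 37.9% of all genes. Of 42 cell wall genes 16 rose and 11 fell, with the adhesin FLO11 at 143, 95.8 and 96.4 CPM in STH1-AID DMSO and 46.9, 49.5 and 42.4 CPM in WT, and the chitinase CTS1 lower by a log2 fold change of -0.95.

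Few cytosolic ribosomal protein genes, the main Rap1 targets, passed. Of 137 tested 9 rose and none fell, with a median of 0.07, so 6.57% passed, against 37.9% of all genes. Under total library size 24 rose and none fell, with a median of 0.19. Of 122 ribosome biogenesis genes 42 fell and 9 rose, with a median of -0.17, but with total library size as the scaling 17 fell and 17 rose, so that their direction depends on the scaling. Of 34 proteasome genes 11 fell and none rose, with a median of -0.16, and under total library size the median was -0.03. RAP1-AID DMSO was lower still: the list median (log2 level less the WT mean) was -0.48, -0.53 and -0.60 in its libraries. It was -0.15, -0.18 and -0.17 in STH1-AID DMSO. In STH1-AID DMSO over RAP1-AID DMSO 25 of these genes were higher and none lower. RPN8, a lid subunit, was at 140.1, 152 and 168 CPM in STH1-AID DMSO and at 244, 208 and 225 CPM in WT.

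Under TMM scaling, position and expression level went with the direction of change. Of 201 genes within 20 kb of a chromosome end 82 rose (40.8%) and 17 fell (8.46%), with a median log2 fold change of 0.53, and of 5527 genes farther away 978 rose and 1098 fell, with a median of -0.01. Without chromosome IX the genes near ends had the same median of 0.53. The end genes moved the other way against RAP1-AID DMSO: the median of STH1-AID DMSO over RAP1-AID DMSO was -0.65, with 13 genes higher and 106 lower. When genes were put into 5 groups of equal size by their level in RAP1-AID DMSO, libraries outside this comparison, the median of STH1-AID DMSO over WT was 0.19 in the lowest group, then 0.06, 0.03, -0.05 and -0.11 in the highest. The share of genes that rose was 22.8% in the lowest group and 9.92% in the highest, and the share that fell 7.57% and 28.4%. Under total library size the median of all genes moved up by 0.12, about the size of the -0.11 of the highest group. The signs of these medians and the shares thus hold for TMM scaling only.

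STH1-AID DMSO was next set against RAP1-AID DMSO, a control that also carries OsTIR1 and a degron tag and received DMSO. In that comparison 984 genes were higher (17.1%) and 1071 lower (18.7%) in STH1-AID DMSO, so that strains handled alike differed in about as many genes as STH1-AID DMSO and WT did. Both comparisons use the same 3 STH1-AID DMSO libraries, and their values are therefore only set side by side. With total library size as the scaling, 697 genes were higher and 1269 lower. COM2, TOS3 and ACO1 had log2 fold changes of -2.59, -2.40 and -1.06 over WT, and of -0.30, 0.00 and -0.03 over RAP1-AID DMSO, where none passed. NRD1, CBF1 and HIS4 had 1.28, 0.79 and 0.96 over WT, and 0.60, 1.01 and 1.09 over RAP1-AID DMSO, where all 3 passed. IMD2 had 2.22 over WT and -2.55 over RAP1-AID DMSO, in which it was at 391, 331 and 409 CPM.

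The Sth1 tag could be read a second time in libraries that the first comparison does not use, as RAP1-AID/STH1-AID DMSO against RAP1-AID DMSO. These strains share OsTIR1, the Rap1 tag and DMSO, and both transcribe MET17. Here 373 genes were higher (6.5%) and 629 lower (11%), or 193 and 679 with total library size as the scaling. In place of the 1002 genes in all, 637 passed without RAP1-AID/STH1-AID DMSO replicate 1, 649 without RAP1-AID DMSO replicate 1 and 623 without RAP1-AID DMSO replicate 2. Of the 1060 genes that rose in STH1-AID DMSO over WT, 64 (6.04%) were also higher here and 212 (20.0%) were lower. Of the 1115 that fell, 113 (10.1%) were also lower and 108 (9.69%) were higher. Read the other way, 17.2% of the 373 and 18.0% of the 629 genes had passed in the same direction in STH1-AID DMSO over WT. The same-direction shares are close to the 6.5% and 11% of all genes. The difference between both effects passed for 2021 genes, which is 35.2% of those tested.

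Of 5742 genes tested, 17 passed at more than 2-fold in the same direction in both pairs of strains, of which 10 rose and 7 fell. Those described here were chosen after their values were seen. The 17 include the Ty gene YML045W-A and genes with few counts. PHM6 had a mean of 5 counts and YMR244W of 6.83 over the 6 libraries of the first pair. In the second pair alone 37 genes rose and 116 fell more than 2-fold. Of the 205 genes that rose more than 2-fold in STH1-AID DMSO over WT, 14 (6.83%) were higher in the second pair and 58 (28.3%) lower, with a median there of -0.32, and of the 114 that fell more than 2-fold 16 (14.04%) were lower and 14 (12.3%) higher. YDR248C, a putative gluconokinase gene, was at 4.58, 5.38 and 4.25 CPM in STH1-AID DMSO and 16.1, 18.2 and 17.1 CPM in WT, and at 7.54, 9.17 and 5.70 CPM in RAP1-AID/STH1-AID DMSO and 16.4, 18.4 and 15.1 CPM in RAP1-AID DMSO. Its log2 fold changes were -1.86 ± 0.17 and -1.16 ± 0.16 (SE; adjusted p = 2.21e-07 and 6.8e-05). GPM2, a phosphoglycerate mutase homologue, fell by 1.296 and 1.50 on the log2 scale, and SET6, which encodes a SET domain protein, by 2.76 and 2.46. ARG1 was at 88.5, 72.1 and 129 CPM in RAP1-AID/STH1-AID DMSO and at 18.6, 17.4 and 25.6 CPM in RAP1-AID DMSO, a log2 fold change of 2.23 ± 0.23 (SE; adjusted p = 1.67e-06). CSS1, a secreted protein gene on chromosome IX, rose by 1.33 over WT and by 1.92 in the second pair, in which chromosome IX as a whole had a median of -0.005. IMD2 and DAN1 rose by 1.04 and 1.34 in the second pair. STH1 passed in both pairs below the 2-fold limit, with the values given above.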

How the data were processed

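Nascent RNA was purified by the authors through Rpb3-3xFLAG, trimmed with cutadapt 1.9.1 and assigned to Ensembl R64-1-1 genes (release 90) with RSEM 1.3.0 and STAR 2.5.2a, and their own comparisons used DESeq2 1.12.3. The authors deposited expected counts per gene, not normalized between libraries, and TPM values, which were not used here. Expected counts of a library summed to 18289800 to 23182305 after rounding, and 7.82% to 9.25% of the values were not whole. Reads without molecular identifiers are not independent molecules, so intervals cover counting error only.

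Rounded counts of all 21 libraries were fitted with edgeR 4.0.16 in R 4.3.3 (TMM, low-count filter by group, quasi-likelihood test, 1 coefficient per group, 14 residual degrees of freedom). The filter kept 6164 features, of which 5742 protein-coding genes entered the Benjamini-Hochberg adjustment, and the reference matched names to RefSeq R64. Standard errors were derived from the fold change and its F statistic. Gene groups carry counts and medians only. Promoters were the 500 bases before the start codon. The genes named are the markers, tagged loci and their nearest 2 neighbours on each side, the 15 largest changes each way past both thresholds with a mean of 50 counts and no overlap, up to 8 passing members of each list, and the RSC subunits; other names are stated as chosen later. The genes, groups and lists were chosen with earlier results of these data known. The steps were tested on simulated data. Alternatives were DESeq2 1.42.0 (size factors and Wald test), total library size, other filters, only the compared libraries, a replicate block, each library left out, an adjusted p of at most 0.01, all features, and, added after seeing the data, leaving out chromosome IX.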

Additional observations from a re-analysis of the deposited data

Results flagged for a closer look

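For 4 of the 30 largest changes, the Sth1 tag went with opposite changes in the 2 pairs of strains, and the difference itself passed the test over all genes. The pairs are not the same alleles, since WT also lacks OsTIR1 and DMSO, and the cause was not tested. RSB1 rose by 2.85 in STH1-AID DMSO over WT and fell by 0.84 in RAP1-AID/STH1-AID DMSO over RAP1-AID DMSO, a difference of 3.68 on the log2 scale. YDR222W fell by 2.39 in the first pair and rose by 1.67 in the second, a difference of -4.06. For GAT2 the difference was -3.27, with -2.32 in the first pair and 0.95 in the second, and for YLR297W it was -3.25, with -2.29 and 0.96. Of the 5742 genes tested 320 passed in opposite directions in the 2 pairs, and the difference passed for each of these. Opposite effects make a difference larger than either effect. For genes chosen in this way, the 4 above included, a passing difference nearly follows from the choice and adds no support. TPO3, IDH2, CIT1 and ARO4 are further examples among the genes named above.

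Positive fold changes also appeared in features that the comparison of protein-coding genes leaves out. The 338 features with names of open reading frames that are not in the reference had a median log2 fold change of 0.41 in STH1-AID DMSO over WT, with 53 higher (15.7%) and 11 lower (3.25%) when adjusted over all features, against 18.3% and 19.3% of protein-coding genes in the same adjustment. Their median level was 0.795 CPM or less in these 6 libraries. Their median against WT was 0.49, 0.39 and 0.18 in the 3 STH1-AID DMSO libraries and -0.14, 0.16 and -0.04 in the 3 WT libraries. The groups of library medians did not overlap. Over RAP1-AID DMSO the median of STH1-AID DMSO was -0.08.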

How the results depend on the processing

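The count of genes that differed between STH1-AID DMSO and WT stayed within 1.5 times of 2175 under every alternative run, from 1470 at an adjusted p of at most 0.01 to 2435 with a replicate block, and was 1773 to 2048 when single libraries were left out. At more than 2-fold, where 319 genes passed, these left-out fits gave 289 to 334. For STH1-AID DMSO against RAP1-AID DMSO, 1336 genes passed at an adjusted p of at most 0.01 in place of 2055, and 1578 to 1828 with single libraries left out. For RAP1-AID/STH1-AID DMSO against RAP1-AID DMSO, 465 genes passed at an adjusted p of at most 0.01 in place of 1002, and 623 to 870 with single libraries left out; a stricter threshold and fewer samples pass fewer genes by construction. DESeq2's Wald test passed 2264, 314, 2155 and 1200 genes in these 4 counts. Of 338 named genes 251 kept their call under every alternative. Over 4373 such results 275 lost the call, 21 gained it and none passed in the opposite direction. Of the medians of 45 gene lists, 31 moved by more than the spread between replicates under total library size.

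Replicate numbers did not pair the samples, since same-numbered STH1-AID DMSO and WT libraries had correlated deviations of 0.017, 0.048 and 0.035. The replicate block passed 2435 genes, 320 at more than 2-fold, 2336 against RAP1-AID DMSO and 1285 in the second pair. Depth was similar in both groups, so the limit for genes such as MET17 and DAN1 is the few counts of the lower group.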
